A study of Saccharomyces cerevisiae with 9 samples.

Results

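The 10 genes described here encode the enzymes of glycogen metabolism in Saccharomyces cerevisiae: the glycogenins GLG1 and GLG2, the glycogen synthases GSY1 and GSY2, the branching enzyme GLC3, the glycogen phosphorylase GPH1, the debranching enzyme GDB1, the phosphoglucomutases PGM1 and PGM2, and the UDP-glucose pyrophosphorylase UGP1. They were chosen by name, with earlier results of these data known, and all 10 were found among the 6952 transcript entries of the deposited table. Each passed the filter on low counts and was tested in every comparison.

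Glycogen is a branched polymer of glucose that yeast cells store as glucose runs out or growth slows, and draw on when carbon is scarce. Phosphoglucomutase converts glucose 6-phosphate to glucose 1-phosphate, Ugp1 turns this into UDP-glucose, glycogenin primes the chain with glucose residues, glycogen synthase extends it and Glc3 introduces the branches. Gph1 releases glucose 1-phosphate from the chain ends and Gdb1 removes the branches, so that the phosphoglucomutases serve storage and breakdown alike. UDP-glucose also feeds the cell wall, trehalose and galactose pathways. Gsy2 is known as the main glycogen synthase of cells entering stationary phase, and Pgm2 as the major phosphoglucomutase.

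Ribosome profiling (Ribo-Seq), in which the stretches of mRNA shielded by ribosomes during nuclease digestion are sequenced, was performed on 9 libraries of S. cerevisiae W303 cells in YEPD, 3 for each strain. WT was the parent strain. In pbp1Δ the PBP1 gene was replaced by URA3, and in pab1Δpbp1Δ the PAB1 gene was additionally replaced by kanMX, so that the loss of PBP1 and the URA3 marker are shared by both mutants. PAB1 encodes the cytoplasmic poly(A)-binding protein, is essential, and can be deleted when PBP1, which encodes a partner of Pab1, is also absent. The methods of the study describe technical replicates of 1 strain for WT, whereas the pbp1Δ libraries came from 3 isolates and the pab1Δpbp1Δ libraries from 3 isolates derived from 1 pbp1Δ strain. By that description the spread among WT libraries is technical, although the results section of the study speaks of biological replicates for each strain. The pab1Δpbp1Δ strain also grew more slowly, so loss of PAB1, the kanMX marker, slow growth and descent from 1 strain cannot be told apart in its comparisons. Against WT, loss of PBP1 and the URA3 marker come on top of these. A footprint count combines the amount of an mRNA with its ribosome density, and these cannot be told apart here either.

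Libraries held between 3149040 and 6903587 expected counts, with pab1Δpbp1Δ replicate 3 the shallowest. PAB1 had between 4564.5 and 5644.1 normalized counts in the WT and pbp1Δ libraries and between 0 and 2.9 in the pab1Δpbp1Δ libraries. PBP1 had between 777.6 and 812.7 normalized counts in WT and between 0 and 3.3 in the 6 mutant libraries. The counts of the deleted genes matched the labels of all 9 libraries.

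In WT the footprints on glycogen enzymes were dominated by the enzymes that make UDP-glucose. In FPKM, the authors' unit that adjusts counts for transcript length and library depth, UGP1 had 249.6 ± 21.0 (SD, n = 3) and PGM1 150.4 ± 7.20 (SD, n = 3), which together were 51.48% and 31.02% of the summed FPKM of the 10 genes. The next gene, PGM2, had 19.6 ± 5.51 FPKM (SD, n = 3), so that PGM1 and not PGM2 carried most phosphoglucomutase footprints in these growing cells. Below them came GPH1 with 17.2 FPKM, GSY1 with 12.0, GLC3 with 10.7, GSY2 with 9.32, GLG2 with 8.27 and GDB1 with 6.58. The ranges of neighbours in this lower group overlapped at each step, from PGM2 to GDB1, whereas UGP1, PGM1 and PGM2 were separate from one another. GLG1 was lowest, with 1.08 ± 0.108 FPKM (SD, n = 3), and stood apart from GDB1.

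The same order held at the top in pbp1Δ, with UGP1 at 251.8 ± 42.5 FPKM (SD, n = 3), PGM1 at 169.9 ± 21.9 (SD, n = 3) and PGM2 at 16.2 ± 0.866 (SD, n = 3). In pab1Δpbp1Δ, PGM1 had 130.8 ± 22.7 FPKM (SD, n = 3) and UGP1 128.6 ± 14.9 (SD, n = 3), and their ranges overlapped. The debranching enzyme GDB1 stood at rank 9 in WT and pbp1Δ and at rank 5 in pab1Δpbp1Δ with 24.0 FPKM, while the synthase GSY1 stood at rank 5 in WT and pbp1Δ and at rank 9 in pab1Δpbp1Δ with 5.40 FPKM. GPH1, at 47.5 FPKM, was then the highest of the 8 genes below PGM1 and UGP1, although its range overlapped that of PGM2.

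The summed share of these enzymes overlapped between strains. Together the 10 genes took 0.0929 ± 0.00804% of all footprints in WT (SD, n = 3), 0.0957 ± 0.0141% in pbp1Δ (SD, n = 3) and 0.0885 ± 0.0193% in pab1Δpbp1Δ (SD, n = 3). The lowest and highest shares of the 9 libraries were both from pab1Δpbp1Δ, at 0.0759% in replicate 1 (95% Wilson interval 0.0737 to 0.0783) and 0.111% in replicate 2 (0.108 to 0.113). These intervals cover counting error only. The share in pab1Δpbp1Δ thus spanned those of the other strains.

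The question of the main comparison, pab1Δpbp1Δ against pbp1Δ, was what loss of PAB1 does in a background that tolerates it. The enzymes that break glycogen down had more footprints in pab1Δpbp1Δ, with GDB1 4.11-fold and GPH1 2.78-fold higher, and the synthase GSY1 and the UDP-glucose enzyme UGP1 had fewer, at 0.409 and 0.472 times the pbp1Δ level. Of the 10 genes, 2 were called higher and 2 lower at an adjusted p-value below 0.01 (DESeq2, Benjamini-Hochberg), and the other 6 were not called. Among all 5772 entries tested, 21.3% were called, 11.1% higher and 10.2% lower. The normalized counts of the strains did not overlap for 8 of the 10 genes, 5 higher and 3 lower, against 45.9% of all entries tested. The median log2 fold change was 0.497 over the 10 genes and 0.025 over all entries tested. Within the 10 genes the changes ran in both directions, from -1.29 for GSY1 to 2.04 for GDB1.

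**Figure D1:**
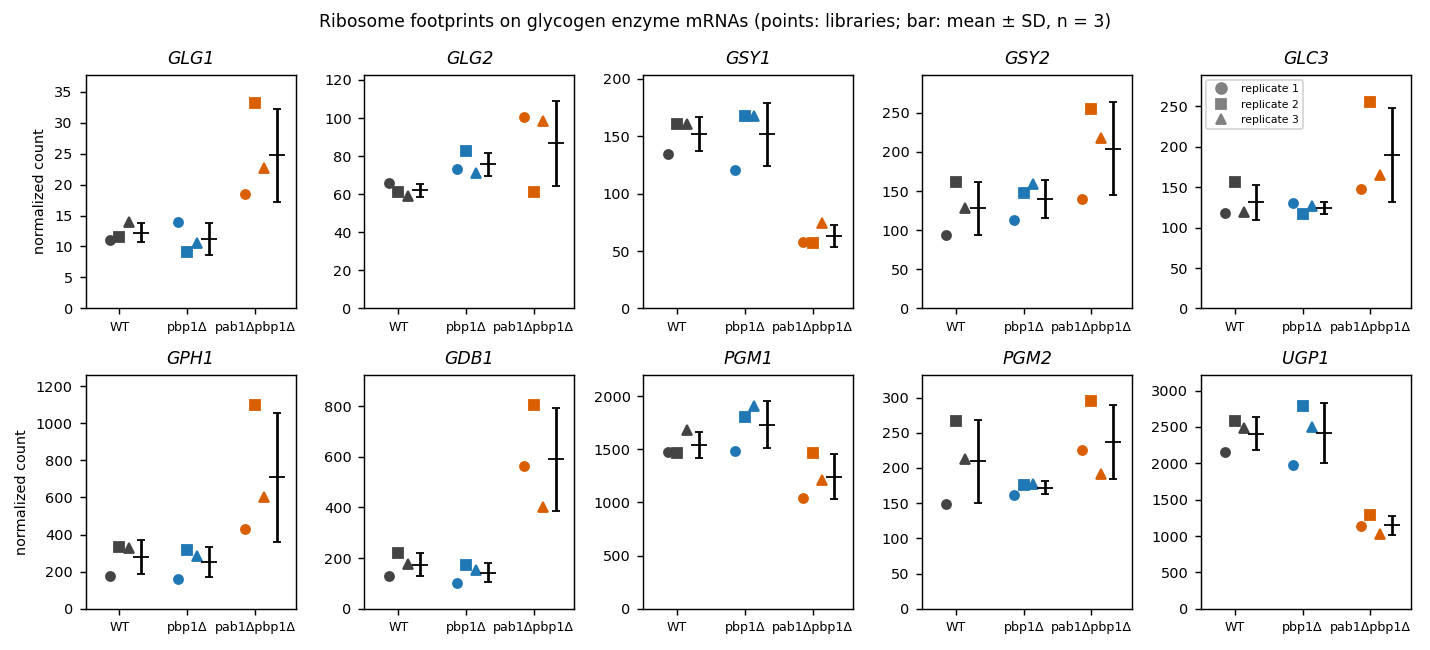
Normalized footprint counts (linear axes from 0, each gene on its own scale) of the 10 glycogen enzyme genes in the 3 WT, 3 pbp1Δ and 3 pab1Δpbp1Δ libraries, with points for libraries and bars for the mean ± SD (n = 3). GDB1 and GPH1 lie higher and GSY1 and UGP1 lower in all 3 pab1Δpbp1Δ libraries than in the other 6.

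Priming of glycogen is the task of the glycogenins, and neither of their genes was called. GLG1 (chromosome XI, 552770 to 554620, a coding region of 1851 bases in the R64 reference annotation) had the fewest footprints of the 10 genes. Its normalized counts, in the order of replicates 1 to 3, were 11.1, 11.6 and 14 in WT, 14, 9.1 and 10.5 in pbp1Δ, and 18.5, 33.1 and 22.6 in pab1Δpbp1Δ. All 3 pab1Δpbp1Δ libraries lay above the other 6, and the log2 fold change against pbp1Δ was 1.14 ± 0.578 (SE), with an adjusted p of 0.122 (DESeq2). At this depth an interval of 0.012 to 2.28 (95%) was left around that value. GLG2 (chromosome X, 154985 to 156127, 1143 bases) had 65.8, 61.4 and 59.2 normalized counts in WT, 73.2, 82.6 and 71.4 in pbp1Δ, and 100.8, 61 and 98.6 in pab1Δpbp1Δ. Its pab1Δpbp1Δ replicate 2 lay below every pbp1Δ library and the other two above them, and the log2 fold change was 0.17 ± 0.317 (SE; adjusted p = 0.74, DESeq2).

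Of the 2 glycogen synthase genes, GSY1 was called lower and GSY2 was not called. GSY1 (chromosome VI, 174265 to 176391, 2127 bases) had 134.9, 160.8 and 160.5 normalized counts in WT, 120.3, 167.7 and 167.4 in pbp1Δ, and 58.3, 57.3 and 74.4 in pab1Δpbp1Δ. Every pab1Δpbp1Δ library was below every other library, and GSY1 fell by 1.29 ± 0.283 (SE) on the log2 scale against pbp1Δ (adjusted p = 5.42e-05, DESeq2). GSY2 (chromosome XII, 660716 to 662833, 2118 bases) had 93.6, 161.9 and 128.2 normalized counts in WT, 112.5, 147.9 and 158.9 in pbp1Δ, and 139.7, 255.1 and 218.3 in pab1Δpbp1Δ. Its replicates 2 and 3 of pab1Δpbp1Δ exceeded every other library, but replicate 1 did not, and the log2 fold change of 0.535 ± 0.286 (SE) was not called (adjusted p = 0.15, DESeq2). Reads shared by the synthase genes, as by the other isoenzyme pairs, were divided between them by the authors' quantification, so the split within a pair is less certain than its sum.

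The branching enzyme gene GLC3 (chromosome V, 133120 to 135234, 2115 bases) had 118.2, 156.6 and 119.6 normalized counts in WT, 129.9, 116.5 and 126.5 in pbp1Δ, and 148, 255.8 and 164.9 in pab1Δpbp1Δ. The 3 pab1Δpbp1Δ libraries were above all pbp1Δ libraries, led by replicate 2. The log2 fold change of 0.60 ± 0.275 (SE) was not called (adjusted p = 0.0813, DESeq2).

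The breakdown enzymes showed the highest log2 fold changes of the 10 genes. GPH1 (chromosome XVI, 861306 to 864014, 2709 bases) had 175, 332.3 and 328.5 normalized counts in WT, 161.3, 314.8 and 283.5 in pbp1Δ, and 430.1, 1098.9 and 600 in pab1Δpbp1Δ. Replicate 2 of pab1Δpbp1Δ stood far above the other libraries of that strain, and replicate 1 was the lowest library in all 3 strains. GPH1 rose by 1.47 ± 0.344 (SE) on the log2 scale (adjusted p = 0.000172, DESeq2). Without pab1Δpbp1Δ replicate 2 the value was 1.01 and remained called (adjusted p = 0.00953), whereas edgeR's quasi-likelihood test gave 1.47 with an adjusted p of 0.0143, which is not a call. The call was also lost with limma on log2 FPKM (adjusted p = 0.0234 and 0.0208).

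GDB1 (chromosome XVI, 902044 to 906654, 4611 bases), the longest of the 10 coding regions, had 128.2, 219 and 176.6 normalized counts in WT, 102, 174.3 and 151.3 in pbp1Δ, and 563.3, 804.9 and 401 in pab1Δpbp1Δ. Each pab1Δpbp1Δ library exceeded every other library by a wide margin. GDB1 rose by 2.04 ± 0.294 (SE) on the log2 scale against pbp1Δ (adjusted p = 1.48e-10, DESeq2) and was called in 16 of 16 alternative settings.

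Among the enzymes that supply UDP-glucose, UGP1 changed most. UGP1 (chromosome XI, 369891 to 371390, 1500 bases) had 2152.6, 2577.6 and 2490.1 normalized counts in WT, 1972.3, 2790.8 and 2493.5 in pbp1Δ, and 1134, 1288.6 and 1030.1 in pab1Δpbp1Δ. The pab1Δpbp1Δ libraries were all well below the other 6, and UGP1 fell by 1.08 ± 0.182 (SE) on the log2 scale (adjusted p = 5.98e-08, DESeq2), a call kept in 16 of 16 alternatives, as was that of GSY1.

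PGM1 (chromosome XI, 203541 to 205253, 1713 bases) had 1471.5, 1465.5 and 1684.5 normalized counts in WT, 1482.3, 1804.4 and 1907.4 in pbp1Δ, and 1045.2, 1467.2 and 1214.5 in pab1Δpbp1Δ. The pab1Δpbp1Δ libraries were below all pbp1Δ libraries, with replicate 2 closest to them, and the log2 fold change was -0.49 ± 0.185 (SE; adjusted p = 0.0284, DESeq2). Without pab1Δpbp1Δ replicate 2 it was -0.63 and passed the threshold (adjusted p = 0.0057). PGM2 (chromosome XIII, 475897 to 477606, 1710 bases) had 148.3, 266.6 and 213.3 normalized counts in WT, 161.3, 176 and 177.9 in pbp1Δ, and 225.7, 294.8 and 190.8 in pab1Δpbp1Δ. It was above pbp1Δ in all 3 libraries but within the WT range in replicates 1 and 3, and its log2 fold change against pbp1Δ of 0.46 ± 0.234 (SE) was not called (adjusted p = 0.126, DESeq2).

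**Figure D2:**
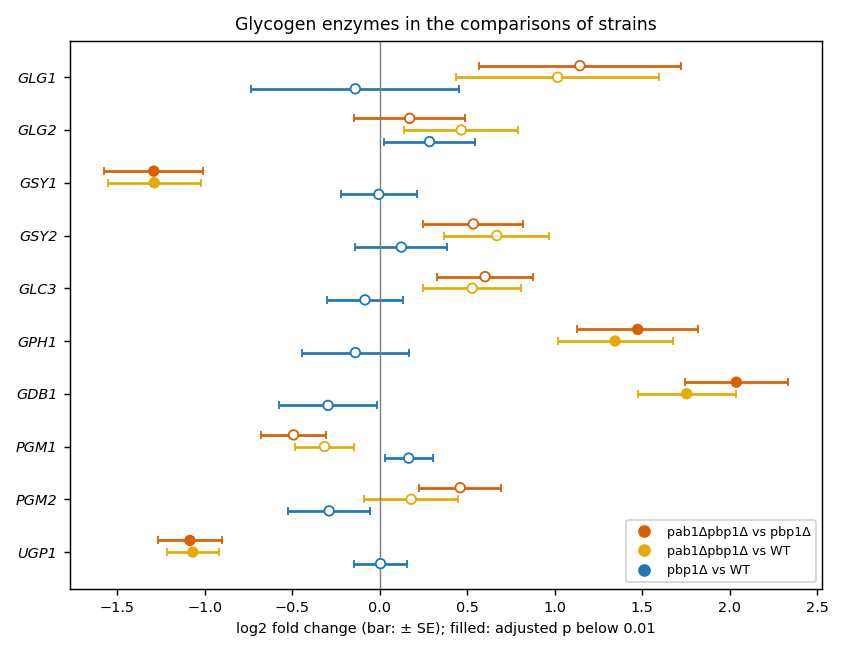
Log2 fold changes (points; bars ± SE; 3 libraries against 3) of the 10 genes in pab1Δpbp1Δ against pbp1Δ, pab1Δpbp1Δ against WT and pbp1Δ against WT, filled where the adjusted p-value was below 0.01. GPH1 and GDB1 are filled to the right of 0 and GSY1 and UGP1 to the left in both comparisons of pab1Δpbp1Δ, and no point of pbp1Δ against WT is filled.

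The pbp1Δ strain was compared with WT to see what loss of PBP1 does while PAB1 is present. The URA3 marker that replaced PBP1 differs between these strains as well, so its effect cannot be told apart from that of the loss. None of the 10 genes was called by DESeq2, against 1.21% of 5638 entries, 0.337% higher and 0.869% lower. None had an unadjusted p below 0.05 in the DESeq2 fit. With edgeR none was called either, but edgeR called only 1 of 5687 entries in this comparison. Log2 fold changes ran from -0.295 for GDB1 to 0.285 for GLG2, with a median of -0.045 over the 10 genes and 0.002 over all entries. GLG2, whose pbp1Δ libraries all lay above WT, was the 1 gene whose groups did not overlap (adjusted p = 0.748, DESeq2), against 23.3% of entries. The 95% intervals limited the change of UGP1 to between -0.295 and 0.31, of GSY1 to between -0.43 and 0.42, of GPH1 to between -0.74 and 0.46 and of GDB1 to between -0.84 and 0.25. For GLG1 the interval of -1.30 to 1.03 spanned changes of 2-fold in either direction.

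The comparison of pab1Δpbp1Δ with WT used the same pab1Δpbp1Δ libraries as that with pbp1Δ, so its values are given beside them and not as separate evidence. The same 4 genes were called, 2 higher and 2 lower, against 30.9% of 5880 entries, 15.7% higher and 15.3% lower. GDB1 rose by 1.75 ± 0.279 (SE) against WT on the log2 scale (adjusted p = 5.3e-09, DESeq2) and GPH1 by 1.345 ± 0.329 (SE; adjusted p = 0.000236). GSY1 fell by 1.29 ± 0.267 (SE; adjusted p = 1.05e-05) and UGP1 by 1.07 ± 0.149 (SE; adjusted p = 1.83e-11). Groups did not overlap for 5 genes, GPH1, GDB1 and GLG1 higher and GSY1 and UGP1 lower, against 55.1% of entries.

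The remaining 6 genes were not called against WT. GSY2 had a log2 fold change of 0.67 (adjusted p = 0.0622, DESeq2), which passed the threshold without pab1Δpbp1Δ replicate 1 (0.88, adjusted p = 0.00931). The others were 1.02 for GLG1, 0.53 for GLC3, 0.47 for GLG2, 0.18 for PGM2 and -0.315 for PGM1. The call of GPH1 against WT was lost with edgeR (adjusted p = 0.0101) and with limma on log2 FPKM (adjusted p = 0.0189 and 0.0171). It was also lost without pab1Δpbp1Δ replicate 2 (0.88, adjusted p = 0.0156) and without WT replicate 1 (1.095, adjusted p = 0.0103).

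Because the 2 glycogen synthases are alternative forms of the same enzyme, their balance was examined as the ratio of GSY2 to GSY1 FPKM within each library. The ratio was 0.641, 0.926 and 0.735 in WT, 0.863, 0.812 and 0.873 in pbp1Δ, and 2.21, 4.09 and 2.70 in pab1Δpbp1Δ. GSY1 thus had the higher FPKM in all 6 libraries with PAB1 and GSY2 in all 3 without it. The ratio was 3.42-fold higher in pab1Δpbp1Δ than in pbp1Δ, a difference in log2 ratio of 1.77 (exact two-sided permutation p = 0.1, the smallest that 3 against 3 allows; 0.257 after adjustment over 9 such tests). The summed FPKM of both genes was 17.98, 24.88 and 21.21 in WT, 17.77, 24.01 and 25.02 in pbp1Δ, and 15.92, 24.99 and 23.48 in pab1Δpbp1Δ. The sums of the strains overlapped, with pab1Δpbp1Δ replicate 1 the lowest of the 9, while the share of GSY2 in them went from between 39.0 and 48.1% in WT to between 68.8 and 80.4% in pab1Δpbp1Δ.

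**Figure D3:**
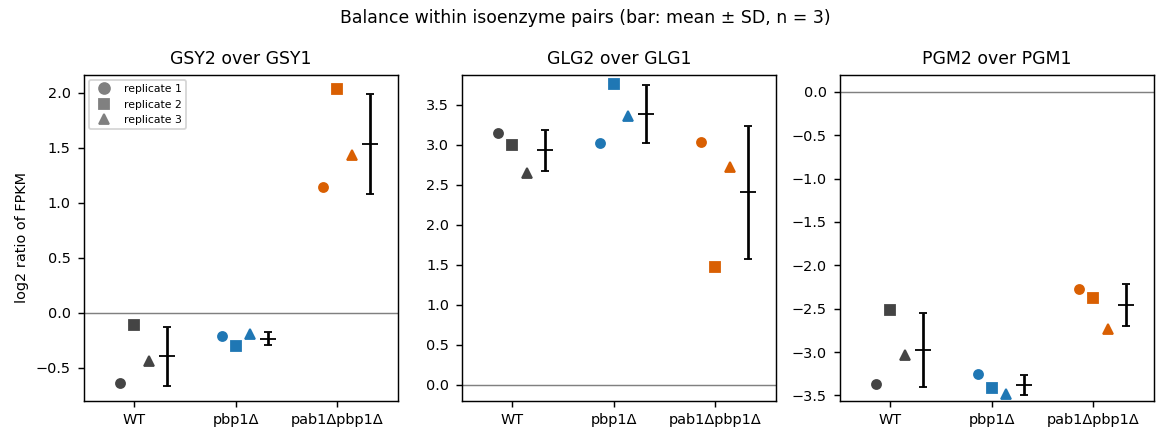
Log2 ratio of FPKM within the isoenzyme pairs GSY2 over GSY1, GLG2 over GLG1 and PGM2 over PGM1 in each library (points), with the mean ± SD of each strain (n = 3) and a line at equal FPKM. The GSY2 over GSY1 ratio lies below the line in the WT and pbp1Δ libraries and above it in the 3 pab1Δpbp1Δ libraries.

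For the phosphoglucomutases, PGM1 had the higher FPKM in all 9 libraries. The ratio of PGM2 to PGM1 FPKM was 0.0969, 0.174 and 0.122 in WT, 0.105, 0.0938 and 0.0896 in pbp1Δ, and 0.208, 0.193 and 0.151 in pab1Δpbp1Δ. It was 1.901-fold higher in pab1Δpbp1Δ than in pbp1Δ with no overlap (difference in log2 ratio 0.93, exact permutation p = 0.1, adjusted 0.257) but overlapped WT (0.52, exact permutation p = 0.2). For the glycogenins the ratio of GLG2 to GLG1 was between 6.28 and 8.88 in WT, between 8.16 and 13.6 in pbp1Δ and between 2.76 and 8.20 in pab1Δpbp1Δ, with a difference of -0.98 in log2 ratio against pbp1Δ (exact permutation p = 0.2). In pbp1Δ against WT the differences in log2 ratio were 0.16 for the synthases, 0.455 for the glycogenins and -0.41 for the phosphoglucomutases, with exact permutation p-values of 0.4, 0.2 and 0.2.

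Within a strain, the same library was often the lowest or the highest for several of the genes. WT replicate 1 was the lowest WT library for 8 of the 10 genes, against 38.9% of 5300 entries, and WT replicate 2 the highest for 7, against 25.3%. In pbp1Δ, replicate 1 was lowest for 7 genes, against 40.6%. In pab1Δpbp1Δ, replicate 2 was highest for 8 genes, against 32.8%, the exceptions being GSY1 and GLG2, for which it was the lowest. Over the 9 libraries, the correlation of each gene with the mean standardised profile of the 10 genes, a profile that includes the gene itself, was 0.95 for GSY2, 0.937 for GPH1, 0.831 for PGM2, 0.824 for GLC3 and 0.784 for GDB1. It was 0.646 for GLG1, -0.0439 for PGM1 and -0.0717 for GLG2, which were not called. It was -0.453 for GSY1 and -0.361 for UGP1, the 2 genes called lower. Outside the 10 genes, the 3 entries most like this profile among 3821 compared included HTS1, a histidyl-tRNA synthetase gene (r = 0.969), and TAF2, which encodes a subunit of the general transcription factor TFIID (r = 0.936). These correlations describe 9 libraries that share strains and scaling.

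Other genes of the pathway were taken as lists. Of 16 genes that regulate glycogen enzymes or, like SGA1, degrade glycogen in sporulating cells, 2 were called in pab1Δpbp1Δ against pbp1Δ, and both were higher, against 21.3% of all entries called and 11.1% called higher. GAC1, which encodes the subunit that directs the phosphatase Glc7 to glycogen synthase, had 3.5, 9.9 and 4.8 normalized counts in pbp1Δ and 22.2, 36 and 42 in pab1Δpbp1Δ, a rise of 2.43 ± 0.638 (SE) on the log2 scale (adjusted p = 0.000961, DESeq2). PSK1, which encodes a kinase that acts on Ugp1 and glycogen synthase, rose by 0.86 ± 0.261 (SE; adjusted p = 0.0052) but lost the call with edgeR (adjusted p = 0.0179), with limma on log2 FPKM (0.027 and 0.0272) and without any library of either strain except pab1Δpbp1Δ replicate 1 (0.0155 to 0.0623). GLC7 itself had the lowest value, -0.46 (adjusted p = 0.0233, not called), and the median of the list was 0.379. GAC1 was not called without pbp1Δ replicate 3 (adjusted p = 0.0122) or without pab1Δpbp1Δ replicate 2 or 3 (0.0147 and 0.0175). The count of called regulators ranged from 0 of 16, without pbp1Δ replicate 3 or pab1Δpbp1Δ replicate 3, to 4 without pbp1Δ replicate 1. Over all entries, 786 of 5748 and 1001 of 5611 were called in the settings with 0 regulators. In the setting with 4, 1201 of 5753 were called, against 1230 of 5772 in the main fit.

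Of 6 genes for the phosphorylation of glucose and the handling of its phosphates, the glucokinase gene GLK1 and the hexokinase gene HXK1 were called, both higher, against 11.1% of all entries called higher. GLK1, whose annotated region overlaps YCL042W, had 2424.8, 2962.7 and 2797 normalized counts in pbp1Δ and 5572.1, 7527.1 and 5490.2 in pab1Δpbp1Δ, a rise of 1.17 ± 0.177 (SE) on the log2 scale (adjusted p = 1.36e-09, DESeq2). HXK1 had 477.8, 586.6 and 459.5 normalized counts in pbp1Δ and 1167.3, 1143.8 and 970.3 in pab1Δpbp1Δ, a rise of 1.09 ± 0.175 (SE; adjusted p = 1.15e-08). Neither gene's strains overlapped, against 45.9% of all entries tested without overlap, and both calls held in 16 of 16 alternatives. EMI2, a relative of GLK1, had the lowest value, -0.17 (adjusted p = 0.521), and the median of the list was 0.484.

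Of 14 genes of the cyclic AMP and nutrient signalling pathways that control stress and storage genes, 2 were called, against 21.3% of all entries. The count of calls in either direction thus did not exceed the background. Both calls were lower, against 10.2% of all entries called lower. RAS2, which encodes a GTPase that activates adenylate cyclase, fell by 0.70 ± 0.207 (SE) on the log2 scale (adjusted p = 0.00415, DESeq2), and PDE2, which encodes the phosphodiesterase that degrades cyclic AMP, by 0.62 ± 0.193 (SE; adjusted p = 0.0065). With edgeR neither was called (adjusted p = 0.0267 and 0.0109) or with total counts as scaling (0.0202 and 0.0329), and neither was called without pab1Δpbp1Δ replicate 2 or 3 or without pbp1Δ replicate 2 or 3. The direction of calls in this list varied with the setting. With total counts 3 of its genes were called, all 3 higher. With all 9 libraries in a fit 3 were higher and 3 lower. A minimum mean count of 10 gave 2 higher and 2 lower, and the gene table gave 1 higher and 2 lower. Leaving out replicate 1 of either strain gave 1 higher and 1 lower. All calls were lower, as in the main fit, with TMM scaling, without independent filtering and with the replicate block. The highest value was 0.74 for RIM15, a kinase gene of quiescence entry (adjusted p = 0.0148, not called), and the median of the list was 0.172. The transcription factors MSN2, MSN4 and GIS1, which act on stress and storage genes, were in this list and were not called. Their log2 fold changes were 0.543, 0.322 and 0.737, with adjusted p-values of 0.0463, 0.340 and 0.0103 (DESeq2). The strains did not overlap for MSN2 and GIS1 but did for MSN4, against 45.9% of all entries tested without overlap. In the whole list of 14 genes, 6 did not overlap and were higher, and 4 did not overlap and were lower. GIS1 was called in 4 of 16 alternatives, MSN2 in 1 and MSN4 in 0.

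**Figure D4:**
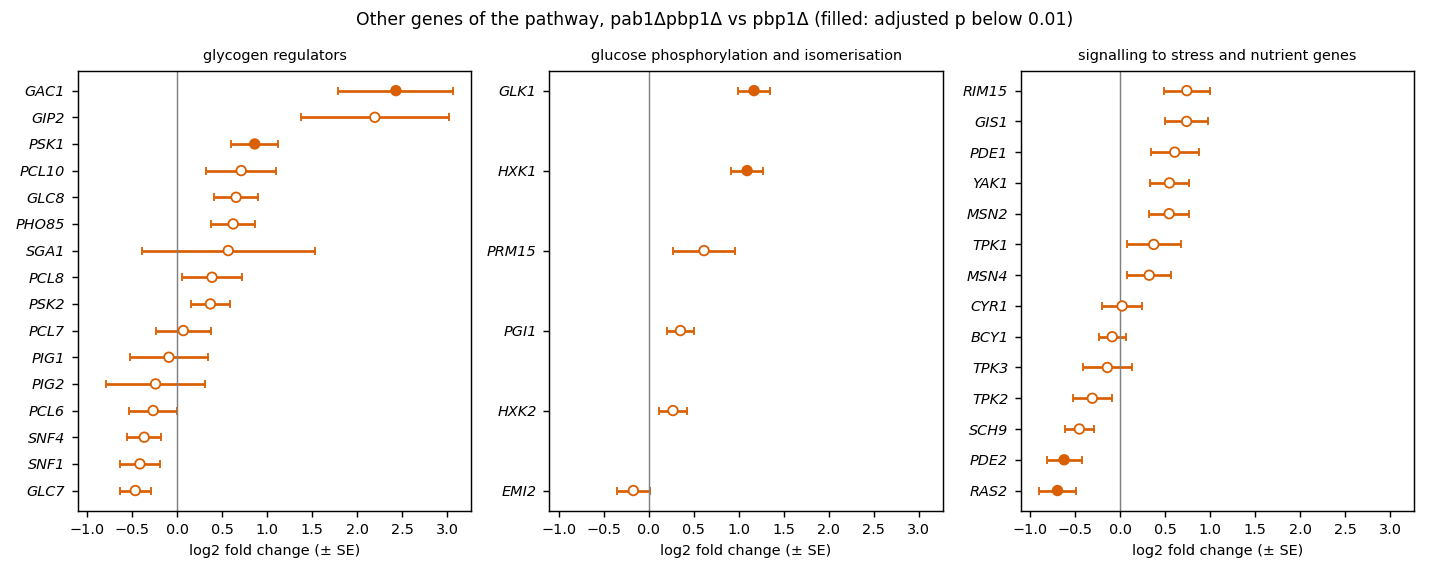
Log2 fold changes (points; bars ± SE; 3 libraries against 3) of pab1Δpbp1Δ against pbp1Δ for 16 glycogen regulators, 6 genes of glucose phosphorylation and isomerisation, and 14 signalling genes, filled where the adjusted p-value was below 0.01. Filled points are GAC1 and PSK1, GLK1 and HXK1 to the right of 0, and RAS2 and PDE2 to the left.

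Against WT, 7 of the 16 regulators were called, with GAC1, GIP2, GLC8, PCL10 and PHO85 higher and GLC7 and SNF1 lower, the names being taken after the values were seen. Of all entries 30.9% were called, 15.7% higher and 15.3% lower. The count was 0 without WT replicate 2, 1 without WT replicate 3 and 4 without pab1Δpbp1Δ replicate 3. Over all entries, these settings called 1353, 1321 and 1606, against 1818 in the main fit. In the glucose phosphorylation list HXK1, GLK1 and the isomerase gene PGI1 were called, each higher, but PGI1 was not called with edgeR (adjusted p = 0.0221), with limma on log2 FPKM (0.0114 and 0.0126) or without any library of either strain except pab1Δpbp1Δ replicate 3 (0.0118 to 0.0515). In the signalling list 1 of 14 was higher (PDE1) and 4 were lower (BCY1, RAS2, PDE2 and SCH9), and the count was 3 without any of the WT replicates or pab1Δpbp1Δ replicate 3. In pbp1Δ against WT no regulator and no glucose phosphorylation gene was called by DESeq2 or edgeR. The kinase gene SCH9 fell by 0.49 ± 0.105 (SE; adjusted p = 0.000608, DESeq2) and BCY1, which encodes the regulatory subunit of protein kinase A, by 0.39 ± 0.095 (SE; adjusted p = 0.0045). Neither was called with edgeR (adjusted p = 0.0912 and 0.124) or when any WT replicate, or replicate 2 or 3 of pbp1Δ, was left out. Few entries were called at all in these settings. In pbp1Δ against WT edgeR called 1 of 5687, and leaving out 1 of these libraries left between 18 and 32, against 68 in the main fit.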

How the data were processed

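Ribosome footprints of 9 S. cerevisiae libraries, 3 each of WT, pbp1Δ and pab1Δpbp1Δ, were analysed from the deposited tables, with groups and replicate numbers read from the labels. According to the methods and the submitters' processing notes, the authors trimmed reads with cutadapt 1.9, aligned them with Bowtie 1.0.0 to a transcriptome, removed PCR duplicates by random read-end nucleotides with UMI-tools and quantified transcripts with RSEM 1.3.0. The notes name the R64 build. The deposited RSEM tables hold expected counts, that is, estimates that share a multiply matching read out over its transcripts, in a table of 6952 isoform entries and one of 6656 gene entries. The authors also deposited FPKM values, which scale the counts by transcript length and library depth. Symbols, coordinates and coding lengths were looked up in RefSeq's gene table for assembly R64, where 6259 isoform entries matched a locus tag.

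Rounded isoform expected counts were tested for each pair of strains with DESeq2 1.42.0 in R 4.3.3, on 6 libraries and without covariates. Entries were called where the p-value, adjusted over all entries by Benjamini-Hochberg after independent filtering at 0.01, was below 0.01. Design and threshold follow the study's methods. Normalized counts were on size factors common to the 9 libraries. Groups were said not to overlap where all 3 normalized counts of a strain lay above or below all 3 of another. Intervals on log2 fold changes are 95% intervals from the SE. Isoenzyme ratios were taken on FPKM after adding 0.01 and compared with exact two-sided permutation tests (scipy 1.17.1). All 10 genes were named in each comparison, PAB1 and PBP1 as a check of the labels, from each other list the called genes and the lowest and highest values in pab1Δpbp1Δ against pbp1Δ, and the 3 entries most like the mean profile, among entries whose mean normalized count reached 100. Of these 3 entries, 1 is not reported here. The genes and lists were chosen with earlier results of these data known.

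Libraries held 3149040 to 6903587 expected counts, and 3 counts correspond to between 4.35e-05% and 9.53e-05% of a library. Replicates differed by more than sampling noise and were counted separately. P-values set a difference between strains against the variation among these libraries. For WT that variation is technical by the study's methods. Alternatives were edgeR 4.0.16, limma 3.58.1 on log2 FPKM, other scalings and filters, the gene table, all 9 libraries in a fit, the replicate number as a block, and leaving out each library in turn. For the other gene lists, all alternatives except edgeR, total-count scaling and the block were added after the data were seen. The script was tested on simulated data.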

Additional observations from a re-analysis of the deposited data

How the results depend on the processing

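The calls of GSY1, GDB1 and UGP1 in both comparisons of pab1Δpbp1Δ were kept in 16 of 16 alternatives, and those of GPH1 in 13 of 16 against pbp1Δ and 11 of 16 against WT. Of the 10 genes, 3 were called with edgeR and with limma on log2(FPKM + 1) or log2(FPKM + 0.1) in both comparisons, 5 with the replicate number as a block against pbp1Δ, where PGM1 passed the threshold (-0.50, adjusted p = 0.00665), and between 4 and 5 (against pbp1Δ) or 3 and 5 (against WT) when a library was left out. In pbp1Δ against WT the count was 0 in each alternative. Values that changed sign were all small and uncalled. In pbp1Δ against WT, leaving out each library in turn gave values of -0.087 to 0.139 for GSY1, -0.056 to 0.329 for GSY2, -0.385 to 0.103 for GPH1, -0.155 to 0.061 for GLC3 and -0.114 to 0.134 for UGP1. GSY1 was 0.004 with total-count scaling and UGP1 -0.005 with the replicate block. In pab1Δpbp1Δ against WT, leaving out a library gave -0.019 to 0.382 for PGM2.

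Counts for the other lists were less stable. Of the regulators, 1 was called against pbp1Δ with edgeR and with both limma fits, and between 0 and 4 against pbp1Δ or 0 and 6 against WT without a library. PSK1 was not called with the replicate block (adjusted p = 0.0114). Of the signalling genes against pbp1Δ, 0 were called with edgeR and both limma fits, 1 with the replicate block, 4 with a minimum mean count of 10 and 6 with all 9 libraries in the fit, and between 0 and 2 without a library. Against WT between 3 and 4 were called without a library. In pbp1Δ against WT, 0 signalling genes were called with edgeR, both limma fits and all 9 libraries, 1 with the block, the minimum count and the gene table, and between 0 and 2 without a library. Over all entries, edgeR called 816 against pbp1Δ and 1650 against WT, and 1 in pbp1Δ against WT, where DESeq2 called 1230, 1818 and 68, and limma on log2(FPKM + 1) called 701, 1463 and 1. A fit on all 9 libraries called 33 entries in pbp1Δ against WT. With a library left out of the pab1Δpbp1Δ comparisons, DESeq2 called between 756 and 1201 entries against pbp1Δ and between 1321 and 1715 against WT. Total-count scaling moved the median of all entries by 0.116 against pbp1Δ and 0.113 against WT, and 64.7% and 61.2% of its calls were higher, where size factors gave 52.0% and 50.7%. With limma on log2(FPKM + 1) the shares were 75.6% and 64.3%. The causes were not tested. The replicate numbers were not shown to pair the samples. Correlations of same-numbered deviations were 0.227, 0.166 and -0.125 for pab1Δpbp1Δ with pbp1Δ. They were 0.296, 0.065 and 0.284 for pbp1Δ with WT, and 0.255, 0.06 and 0.019 for pab1Δpbp1Δ with WT. Replicate 1 correlated best with its own number in each pair of strains, but not every library did. The block called 1197 entries against pbp1Δ. With the block, the GSY2 over GSY1 ratio of pab1Δpbp1Δ against pbp1Δ had an exact sign-flip p of 0.25, the smallest that 3 pairs allow. Of the 10 genes, depth limits GLG1 most, at 9.1 to 33.1 normalized counts, and in the lists GAC1, GIP2 and SGA1 had fewer still in some libraries.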

Other observations

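Summed over the breakdown enzymes GPH1 and GDB1, FPKM was 16.1, 29.3 and 26.1 in WT, 13.9, 26.1 and 23.5 in pbp1Δ, and 51.6, 106.5 and 56.3 in pab1Δpbp1Δ. Divided by the summed FPKM of the synthases GSY1 and GSY2, it was 0.895, 1.18 and 1.23 in WT, 0.783, 1.09 and 0.938 in pbp1Δ, and 3.24, 4.26 and 2.40 in pab1Δpbp1Δ. The lowest pab1Δpbp1Δ ratio lay above the highest of the other 6 libraries. This ratio was formed after the values of its genes were seen and was not tested. Footprints on these mRNAs say nothing of enzyme activity or of the amount of glycogen, neither of which was measured in these libraries.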
